A study of Mus musculus with 2 samples.

Results

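The 35 genes described here encode nuclear receptors and the coregulators that work with them, and were taken by gene symbol from 27179 genes counted in iBAT, the interscapular brown fat, a depot that burns fuel for warmth. The tissue came from untreated mice of the C57BL/6N strain, 20 days old and described as male. There were 2 libraries, 1 from wild-type animals and 1 from animals with a Ucp1 knockout (Ucp1-KO) of the uncoupling protein of brown fat. For either library the tissue of 3 animals was pooled. The spread between animals is therefore not measured, no test of genotype is possible, and every difference below is one between these 2 pools.

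Nuclear receptors are transcription factors that bind DNA and, with ligand, change the activity of nearby genes. The ligand is a small fat-soluble molecule, such as thyroid hormone, retinoic acid, an oxysterol or a steroid. Many nuclear receptors act as a pair with a retinoid X receptor (RXR). Without ligand such pairs hold corepressors, and with ligand they hold coactivators, which open or close the chromatin. In brown fat, thyroid hormone and retinoic acid are known activators of the Ucp1 gene, and the balance of coactivators and corepressors is known to set the oxidative programme.

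The libraries were similar in depth, with totals of 52950913 (wild-type) and 53216727 (Ucp1-KO). Ucp1 itself had 366473 and 37853 counts (log2 ratio -2.98), so that it was much lower but not at 0 in the library labelled Ucp1-KO. All 11 brown adipocyte markers examined had counts in both libraries, with 9 intervals above 0 and 2 below, and 4 of them, Elovl3, Dio2, Ppargc1a and Prdm16, were more than 2-fold higher in Ucp1-KO. The libraries also differed in ways that touch every comparison. All 4 Y-linked genes examined were at 0 counts in the wild-type library and had 491 to 3446 counts in Ucp1-KO. Xist, made from an inactive X chromosome, had 32380 and 16478 counts. This goes against the description as male, since the wild-type counts are those of females and the Ucp1-KO counts those of both sexes mixed. The pools thus differed in sex as well as in genotype. In Ucp1-KO all 15 skeletal muscle markers were lower by 2-fold or more, with none at 0, and their summed normalised counts were 273793 (wild-type) and 39284 (Ucp1-KO). Of 10 macrophage markers, 6 had an interval above 0 and none below, with summed normalised counts of 6238 (wild-type) and 8507 (Ucp1-KO). Beside these marker counts, of all 15212 genes examined, 31.5% had an interval above 0 and 30.5% below. At least 2-fold higher were 7.42% and at least 2-fold lower 9.55%. Mitochondrially encoded genes took 22.4% (wild-type) and 36.7% (Ucp1-KO) of all counts. Genotype cannot be told apart from these differences.

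Values are given as counts and as normalised counts, which are counts divided by a size factor of each library. The difference between the libraries is the log2 ratio of Ucp1-KO to wild-type, taken after adding 0.5 to each normalised count, where positive values mean more in Ucp1-KO. Its 95% interval covers counting error only. A level compared between genes is always given per kilobase of exon, because longer transcripts collect more reads.

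Many of these receptors act through short DNA elements, and the promoter of a gene on this list carries the classic example. Rarb, which encodes retinoic acid receptor beta, is itself switched on by retinoic acid through a direct repeat of the receptor's recognition letters with 5 bases between the copies, known as DR5. The 250 bases upstream of an annotated Rarb start site are shown for that reason, together with those of Cyp26a1, which encodes an enzyme that breaks down retinoic acid, and of Sgk1, a kinase gene induced by glucocorticoids. Capitals mark the paired recognition letters.

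Rarb: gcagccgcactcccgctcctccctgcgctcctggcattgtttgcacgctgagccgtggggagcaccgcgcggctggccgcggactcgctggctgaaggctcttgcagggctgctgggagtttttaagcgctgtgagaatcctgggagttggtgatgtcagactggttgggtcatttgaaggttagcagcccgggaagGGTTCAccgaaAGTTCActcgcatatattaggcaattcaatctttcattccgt
Cyp26a1: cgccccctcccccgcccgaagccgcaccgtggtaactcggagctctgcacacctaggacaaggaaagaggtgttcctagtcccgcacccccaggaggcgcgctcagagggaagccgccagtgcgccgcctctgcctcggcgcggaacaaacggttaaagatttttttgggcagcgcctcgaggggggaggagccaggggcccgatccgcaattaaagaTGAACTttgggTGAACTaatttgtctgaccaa
Sgk1: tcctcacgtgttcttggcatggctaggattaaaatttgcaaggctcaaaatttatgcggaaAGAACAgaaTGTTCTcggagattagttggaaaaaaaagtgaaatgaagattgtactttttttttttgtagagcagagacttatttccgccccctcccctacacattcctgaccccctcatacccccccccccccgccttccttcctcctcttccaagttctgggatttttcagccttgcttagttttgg

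On GRCm39 these stretches lie at chr14:5894037-5894286 on the plus strand, chr19:37686006-37686255 on the plus strand and chr10:21869539-21869788 on the plus strand. They were taken from the RefSeq promoter windows of build GRCm38.p6, which run from 250 bases before to 50 after a start site, and placed on GRCm39 by exact match. The letters searched on both strands were the half-site AGGTCA, in which the first base could also be G while the third could also be T, as direct repeats with 1 to 5 bases between the copies. The palindrome searched was that of the glucocorticoid receptor, the letters AGAACA followed after 3 free bases by their reverse complement. Counted from the start site, the DR5 repeat lay at -53 to -37 in Rarb and at -32 to -16 in Cyp26a1, where it is on the opposite strand. It was found in 0.0974% of all 32851 windows. The palindrome lay at -189 to -175 in Sgk1 and was found in 0.00913% of all windows. Of the 35 genes, 31 had a window, Rarb alone held any of the spaced repeats and none held the palindrome. A match is a description of the letters and does not show binding.

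Of the 35 genes, 30 reached 10 normalised counts on average over the libraries and were examined further. Their log2 ratios were spread to both sides of 0, with 15 above and 15 below, and the median was -0.03 against -0.0016 for all 15212 genes examined. Rxrg, Ncoa1 and Esrrb were at least 2-fold higher in Ucp1-KO, which is 3 of 30 members examined, against 7.42% of all genes. Nr2f1 alone was at least 2-fold lower, 3.33% of the members against 9.55% of all genes. At a smaller size, 1.5-fold, 9 members were higher and 7 were lower, which is 30.0% and 23.3% against 15.4% and 17.9% of all genes. The counting interval lay above 0 for 11 members and below 0 for 13, or 36.7% and 43.3% against 31.5% and 30.5% of all genes. More counts narrow the interval, and with a minimum mean of 50 these shares of all genes were 34.4% and 32.5%. The share of all genes was not matched for counts, here or for the lists below.

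**Figure D1:**
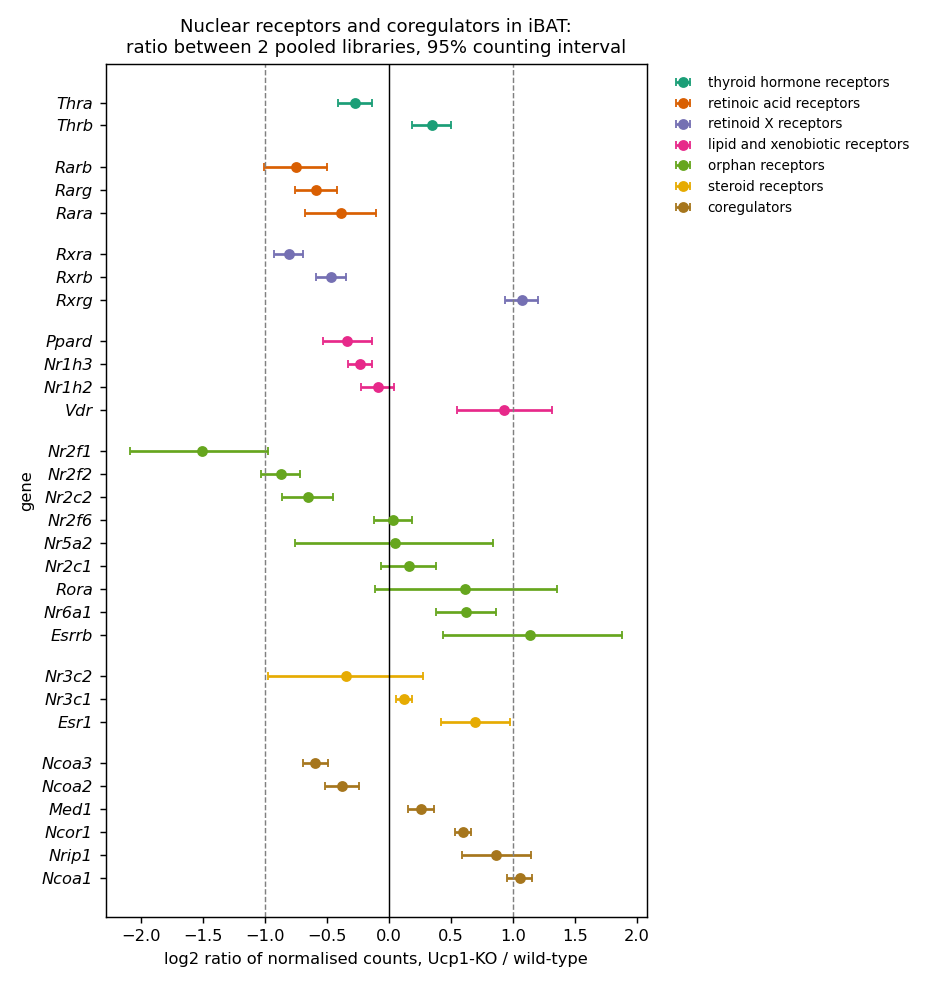
Log2 ratio of normalised counts (Ucp1-KO over wild-type, x axis) of the 30 genes examined, ordered by role. Points are the ratio between 1 library of each genotype, bars the 95% counting interval and dashed lines a 2-fold difference. Rxrg, Ncoa1 and Esrrb lie beyond the right dashed line and Nr2f1 beyond the left.

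The scaling between libraries matters for these statements. When total counts replaced the size factors, the median of all genes shifted to -0.31, and then no member was at least 2-fold higher and 4 were at least 2-fold lower, against 4.80% and 15.2% of all genes. Leaving the mitochondrially encoded genes out of the totals brought the median of all genes to -0.01. Differences between members of a family do not depend on the scaling and are given for that reason.

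The thyroid hormone receptors lay on either side of 0, although with total counts the log2 ratio of Thrb was only 0.04. Thra, the receptor form that is known to support the response of brown fat to noradrenaline, had 2207 wild-type and 1487 Ucp1-KO counts (log2 ratio -0.27, interval -0.41 to -0.13). Thrb, the form known to drive the Ucp1 gene, had 1322 and 1367 counts (log2 ratio 0.35, interval 0.19 to 0.50). The Thra to Thrb ratio was thus 1.53-fold lower in Ucp1-KO, a log2 difference of -0.62 (-0.83 to -0.41). Per kilobase, Thra made up 68.1% of the summed level of this family in wild-type and 58.2% in Ucp1-KO, or 84.8% and 78.5% with the length of the canonical transcript. Thra shares 19.2% of its exonic bases with Nr1d1 on the opposite strand, and Nr1d1 had a log2 ratio of -0.92 (-1.02 to -0.82). How reads were assigned by strand is not given in the sources used here.

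All 3 retinoic acid receptors, which bind retinoic acid as pairs with an RXR, were lower in the Ucp1-KO library. Rarb had 780 wild-type and 377 Ucp1-KO counts (log2 ratio -0.75, interval -1.01 to -0.49), and its normalised count in Ucp1-KO was 59.5% of that in wild-type. Rarg, the most abundant of the family per kilobase, had 1663 and 900 counts (log2 ratio -0.59, interval -0.75 to -0.42). Rara had 534 and 332 counts (log2 ratio -0.39, interval -0.67 to -0.10). The family was lower, and no difference in its make-up was seen beyond counting error. Rarg held 60.8% of the summed level per kilobase in wild-type and 61.3% in Ucp1-KO, while the sum itself was 586 and 387 normalised counts per kilobase. None of the 3 pairs of subtypes differed in its ratio beyond counting error. Rarb, whose promoter is shown above, shares 39.5% of its exonic bases with Top2b on the opposite strand.

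The retinoid X receptors, the shared partners of many other receptors, held the widest contrast among the 15 pairs of subtypes compared in all families. Rxrg (chromosome 1, 167425673 to 167467193, plus strand), a subtype known from muscle and brain, had 1478 wild-type and 2525 Ucp1-KO counts (log2 ratio 1.07, interval 0.94 to 1.21). Rxra (chromosome 2, 27566452 to 27653330, plus strand), the widely expressed subtype, had 3825 and 1776 counts (log2 ratio -0.81, interval -0.92 to -0.69). Rxrb had 3198 and 1883 counts (log2 ratio -0.46, interval -0.58 to -0.35). The ratio of Rxra to Rxrg was 3.68-fold lower in Ucp1-KO, a log2 difference of -1.88 (-2.06 to -1.70), and that of Rxrb to Rxrg was 2.90-fold lower (-1.54, interval -1.71 to -1.36). Rxrg therefore made up 23.4% of the RXR level per kilobase in wild-type and 49.0% in Ucp1-KO. The sum over the 3 subtypes was 1973 and 1988 normalised counts per kilobase, so the make-up differed while the total was nearly equal under these size factors. With total counts the log2 ratio of Rxrg was 0.77 and that of Rxra -1.11. None of the 3 genes shares exonic bases with another coding gene. The muscle markers were lower in the library in which Rxrg was higher, and the part of muscle in the RXR differences was not tested.

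**Figure D2:**
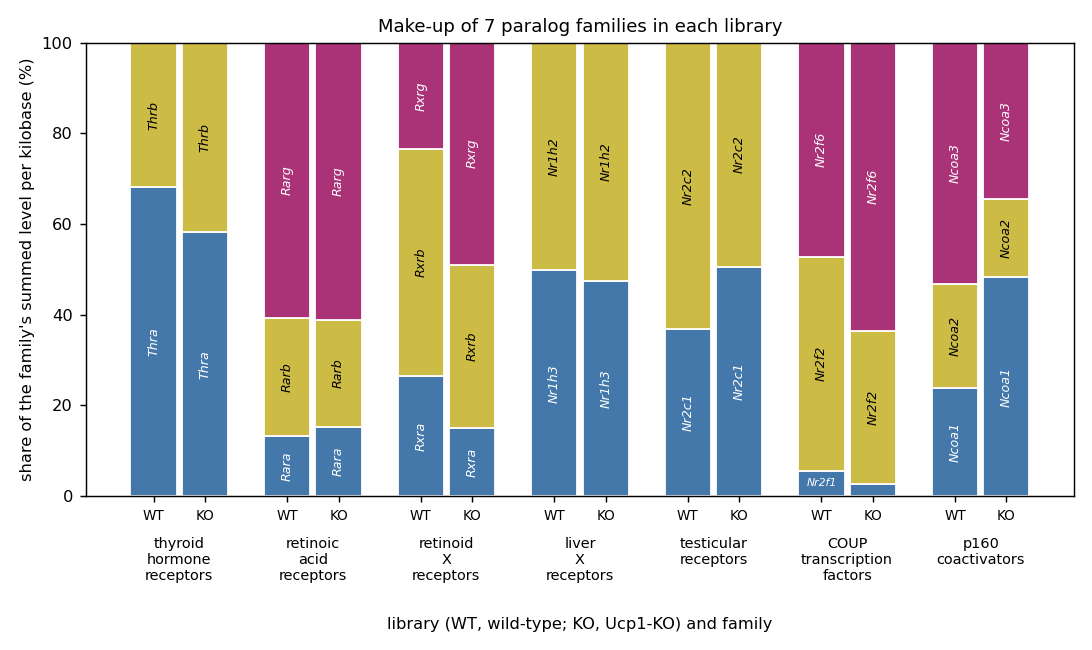
Share of each gene in the summed level per kilobase of its family (y axis, percent) in the wild-type (WT) and Ucp1-KO (KO) library, for 7 families of closely related genes, 1 library per bar. The Rxrg share goes from 23.4% to 49.0% and the Ncoa1 share from 23.8% to 48.3%, while the retinoic acid receptors and the liver X receptors keep similar shares.

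Among the other receptors for lipids and foreign compounds, Vdr stood apart. Vdr, the receptor for active vitamin D, had 192 wild-type and 297 Ucp1-KO counts (log2 ratio 0.93, interval 0.55 to 1.31). Nr1h3 and Nr1h2, the liver X receptors alpha and beta that sense oxysterols, were among the most abundant members, at 753 and 759 normalised counts per kilobase in wild-type, although with canonical transcript length Nr1h3 held 63.6% of their sum. Nr1h3 had 3960 and 2742 counts (log2 ratio -0.23, interval -0.33 to -0.13), and Nr1h2 had 2245 and 1714 (log2 ratio -0.09, interval -0.22 to 0.04). Their ratio to each other did not differ beyond counting error (-0.14, interval -0.31 to 0.02). Ppard, a fatty acid receptor that acts with RXR, had 1067 and 688 counts (log2 ratio -0.33, interval -0.53 to -0.14). Nr1i3, the liver's xenobiotic sensor, had 9 and 10 counts and was below the minimum. Its counts are also uncertain because 69.3% of its exonic bases are shared with Tomm40l on the opposite strand.

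The orphan receptors, which have no established hormone, held the member with the lowest ratio. Nr2f1 (chromosome 13, 78337092 to 78348578, minus strand), a COUP transcription factor of developing tissues, had 256 wild-type and 73 Ucp1-KO counts (log2 ratio -1.50, interval -2.08 to -0.97), so its level in Ucp1-KO was 35.2% of that in wild-type. Nr2f2, its close relative that gives veins their identity, had 2211 and 983 counts (log2 ratio -0.87, interval -1.03 to -0.72). The third of the family, Nr2f6, had 1515 and 1263 counts and a log2 ratio of 0.04 (-0.12 to 0.19), which total counts turned to -0.27. The ratio of Nr2f1 to Nr2f6 was 2.92-fold lower in Ucp1-KO (-1.55, interval -2.16 to -1.0) and that of Nr2f2 to Nr2f6 was 1.88-fold lower (-0.91, interval -1.13 to -0.69). Nr2f6 shares 58.5% of its exonic bases with Ocel1 on the opposite strand, and Nr2f1 and Nr2f2 share none. Most endothelial markers were lower in the same library, with summed normalised counts of 120511 in wild-type and 73884 in Ucp1-KO. Of 10, 9 had an interval below 0 and 1 above, Cldn5 at 0.50 (0.38 to 0.63), and none had 0 counts. Of all genes, 30.5% had an interval below 0 and 31.5% above. In whole tissue, fewer cells of a type and less RNA per cell cannot be told apart, and the part of endothelial cells in these ratios was not tested.

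The testicular receptors Nr2c1 and Nr2c2, a pair that bind DNA together, differed in their ratio as well. Nr2c2 had 1171 and 605 counts (log2 ratio -0.65, interval -0.86 to -0.45), and Nr2c1 had 718 and 652 (log2 ratio 0.16, interval -0.06 to 0.38, and -0.15 with total counts). The ratio of Nr2c1 to Nr2c2 was 1.76-fold higher in Ucp1-KO (0.81, interval 0.51 to 1.12). Nr2c2 shares 46.7% of its exonic bases with Mrps25 on the opposite strand.

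Of the remaining orphan receptors, Esrrb, Rora and Nr5a2 had under 100 counts in either library. Esrrb, an estrogen-related receptor known for its role in stem cells, had 54 wild-type and 97 Ucp1-KO counts, a log2 ratio of 1.14 with a wide interval of 0.44 to 1.88. Nr6a1, the germ cell nuclear factor, had 520 and 651 counts (log2 ratio 0.62, interval 0.38 to 0.86). Rora, which activates clock genes, had 61 and 76 counts, and its log2 ratio of 0.61 did not lie beyond counting error (-0.11 to 1.35). Nr5a2, known from liver and ovary, had 63 and 53 counts, with a log2 ratio of 0.05 that became -0.25 with total counts, and a 1.5-fold difference in either direction was not detectable at this depth (interval -0.75 to 0.84).

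The steroid receptors were led in abundance by Nr3c1, the glucocorticoid receptor. It had 8168 wild-type and 7219 Ucp1-KO counts (log2 ratio 0.12, interval 0.06 to 0.19), and with total counts the ratio was -0.19, so its direction rests on the scaling. Per kilobase its level was 935 (wild-type) and 1018 (Ucp1-KO) normalised counts, which placed it with Rxrb at the top in wild-type and with Rxrg at the top in Ucp1-KO. That order rests on the union of all exons, since with canonical transcript length Nr1h3 was first in both libraries, at 1683 and 1434 normalised counts per kilobase against 1136 and 1236 for Nr3c1. Esr1, estrogen receptor alpha, had 383 and 504 counts (log2 ratio 0.69, interval 0.42 to 0.97). The sex-linked transcripts differed between the same pools, and their part in the Esr1 difference cannot be told apart from genotype. Nr3c2, the mineralocorticoid receptor, had 117 and 75 counts (log2 ratio -0.34, interval -0.97 to 0.27).

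The receptors at 0 counts in both libraries were Hnf4a, which defines hepatocytes, Pgr, the progesterone receptor, and Nr0b1 and Nr0b2, atypical receptors without a DNA-binding domain that repress others. A count of 0 allows up to 3 read pairs, or 6 counts, or 5.41 (wild-type) and 6.66 (Ucp1-KO) normalised counts. No ratio is given for them.

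**Figure D3:**
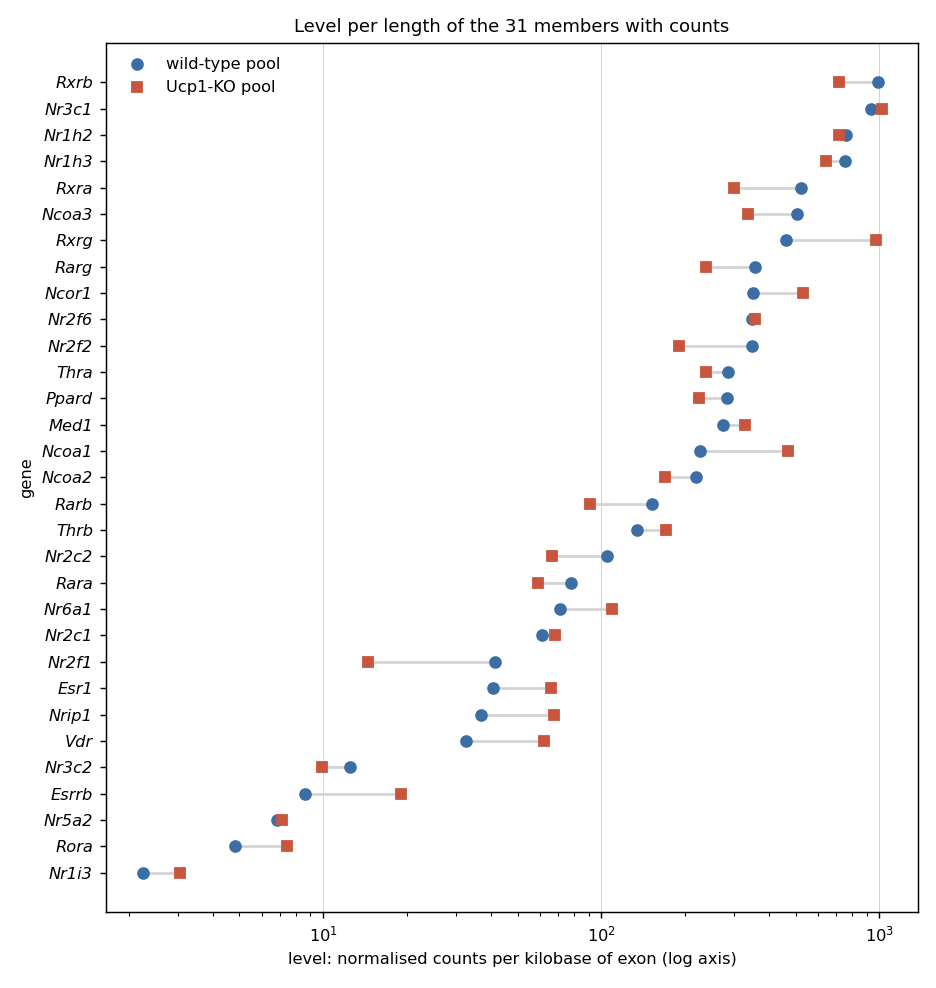
Level of the 31 members with counts, in normalised counts per kilobase of exon (x axis, log scale), in the wild-type pool (circles) and the Ucp1-KO pool (squares), ordered by the wild-type level; 1 library each. Rxrb and Nr3c1 lie at the top, Nr1i3 at the bottom, and the longest gap between the pools is that of Nr2f1.

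The coregulators had ratios of both signs, with 4 of 6 higher in Ucp1-KO, Med1 not so with plain total counts, and a median log2 ratio of 0.43, while that of the 24 receptors examined was -0.16. Ncoa1 (chromosome 12, 4297361 to 4557712, minus strand), a p160 coactivator that brings acetyltransferases to receptors with ligand, had 2668 wild-type and 4503 Ucp1-KO counts (log2 ratio 1.05, interval 0.96 to 1.15). Its paralogs went the other way. Ncoa3 (chromosome 2, 165834534 to 165915162, plus strand) had 4389 and 2367 counts (log2 ratio -0.59, interval -0.69 to -0.49), and Ncoa2, a coactivator of the glucocorticoid receptor and of PPAR gamma, had 2205 and 1382 (log2 ratio -0.37, interval -0.51 to -0.24). The ratio of Ncoa1 to Ncoa3 was 3.13-fold higher in Ucp1-KO (1.65, interval 1.5 to 1.79) and that of Ncoa1 to Ncoa2 was 2.69-fold higher (1.43, interval 1.26 to 1.60). Per kilobase, Ncoa1 held 23.8% of the p160 level in wild-type and 48.3% in Ucp1-KO, and Ncoa3 held 53.2% and 34.4%. The sum over the 3 genes was 951 and 975 normalised counts per kilobase. As in the RXR family, under these size factors the make-up differed and the total hardly did. With total counts the log2 ratio of Ncoa1 was 0.75.

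The corepressors were higher in the Ucp1-KO library. Nrip1, also known as RIP140, which restrains Ucp1 and oxidative genes in fat, had 369 wild-type and 547 Ucp1-KO counts (log2 ratio 0.87, interval 0.59 to 1.14). Ncor1, the platform that brings histone deacetylase 3 to receptors without ligand, had 7099 and 8713 counts (log2 ratio 0.60, interval 0.53 to 0.66). Of its exonic bases, 20.7% are shared with Pigl and Ttc19 on the opposite strand. Med1, the subunit by which the Mediator complex contacts receptors, had 3172 and 3087 counts (log2 ratio 0.26, interval 0.16 to 0.36), which became -0.046 with total counts.

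Across the 7 families of closely related genes, 11 of 15 pairs of subtypes differed in their ratio between the libraries beyond counting error, and 5 of them by at least 2-fold. Those 5 were the pairs of Rxrg with Rxra and Rxrb, of Ncoa1 with Ncoa2 and Ncoa3, and of Nr2f1 with Nr2f6. These ratios cancel both transcript length and library scaling, but pairs that share a gene are not independent. No such share was computed for pairs of other genes, so these counts are not shown to be particular to the families. Of all single genes, 31.5% had an interval above 0 and 30.5% below, while 7.42% were at least 2-fold higher and 9.55% lower. A ratio between 2 genes carries the counting error of both, so those shares are not a like measure.

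Lists of genes that handle the ligands, that are textbook targets of these receptors or that act as further cofactors were set beside the members. Among the thyroid hormone genes, Dio2 stood out. This enzyme makes active thyroid hormone inside brown fat, and had 12330 wild-type and 48488 Ucp1-KO counts (log2 ratio 2.28, interval 2.23 to 2.32). It was the only one of 4 thyroid hormone handling genes examined past 2-fold. Of all genes, 7.42% were at least 2-fold higher and 9.55% lower. The 4 thyroid hormone receptor targets examined were all at least 1.5-fold lower, against 17.9% of all genes. Me1, malic enzyme, had a log2 ratio of -1.38 (-1.43 to -1.34), and Hr, a corepressor that thyroid hormone induces, of -1.02 (-1.28 to -0.77). Klf9, a transcription factor that glucocorticoids also induce, had a log2 ratio of -0.99 (-1.07 to -0.90), and Thrsp, a lipogenic protein, of -0.83 (-0.85 to -0.81). Their median was -1.0, and Dio1, also on the list, had 0 counts in both libraries. Me1 and Thrsp also belong to fatty acid synthesis.

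Retinoid handling genes had 2 of 8 examined at least 2-fold lower and 1 at least 2-fold higher, against 9.55% and 7.42% of all genes, with a median log2 ratio of -0.11. Rbp4, the carrier of retinol in blood, had 2411 wild-type and 383 Ucp1-KO counts (log2 ratio -2.35, interval -2.58 to -2.13). Aldh1a2, named after its value was seen, had 15 and 34 counts. Cyp26a1, whose promoter also holds a repeat of the DR5 spacing, had 7 and 6 counts and was below the minimum.

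Of the 3 glucocorticoid and mineralocorticoid handling genes, 2 had an interval below 0, against 30.5% of all genes. They stand beside a receptor, Nr3c1, whose direction rests on the scaling. Hsd11b1, which regenerates the active hormone in the cell, had 6643 and 2045 counts (log2 ratio -1.40, interval -1.50 to -1.30), and H6pd, which supplies its cofactor, had 7510 and 3072 (log2 ratio -0.99, interval -1.08 to -0.90). Hsd11b2, which inactivates the hormone, had 36 and 14 counts, with 0 inside the interval (-2.57 to 0.26). Of the 9 glucocorticoid receptor targets, 7 had an interval below 0 and 1 above, against 30.5% and 31.5% of all genes, with a median log2 ratio of -0.43. Tsc22d3, the anti-inflammatory leucine zipper protein GILZ, was past 2-fold at -1.15 (-1.22 to -1.07), while Sgk1, whose promoter palindrome is shown above, had a log2 ratio of -0.11 (-0.15 to -0.07).

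The medians of the liver X receptor and PPAR delta targets lay on opposite sides of 0. Of the 8 liver X receptor targets examined, 6 had an interval below 0 and 2 above, against the same shares of all genes, with a median log2 ratio of -0.45. Abca1, which exports cholesterol, had 10795 and 2464 counts (log2 ratio -1.83, interval -1.92 to -1.74). Scd1, a fatty acid desaturase, had a log2 ratio of -1.41 (-1.43 to -1.40), and Srebf1, a lipogenic transcription factor, of -1.14 (-1.23 to -1.05). The 2 that went the other way were Abcg1 at 0.50 (0.29 to 0.71) and Lpcat3 at 0.33 (0.22 to 0.44). All 5 PPAR delta targets had an interval above 0, against 31.5% of all genes, with a median of 0.74. Plin2, a lipid droplet coat, had a log2 ratio of 0.76 (0.73 to 0.79), Pdk4, which spares glucose, of 0.75 (0.73 to 0.77), and Angptl4, which inhibits lipoprotein lipase, of 0.74 (0.69 to 0.79). Cpt1a and Acadvl, enzymes of fatty acid oxidation, were at 0.30 (0.14 to 0.47) and 0.15 (0.14 to 0.17). The shift of -0.31 that total counts bring is about the size of the Lpcat3 and Cpt1a ratios and larger than that of Acadvl. The 5 PPAR delta targets are also targets of other PPARs.

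Vitamin D genes other than Cyp27a1 had few counts. Cyp27a1, a vitamin D and cholesterol hydroxylase, had 4338 and 3062 counts (log2 ratio -0.20, interval -0.30 to -0.11). Cyp2r1, the 25-hydroxylase, had 28 and 9 counts and an interval of -3.27 to 0.27, Cyp27b1, which makes the active hormone, had 12 and 0, and Cyp24a1, the usual target of Vdr, had 0 in both.

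None of the 20 other coregulators was past 2-fold, and their median log2 ratio was 0.21, with 15 intervals above 0 and 1 below, against 31.5% and 30.5% of all genes. With total counts that median was -0.10, and with a minimum mean of 50 those shares of all genes were 34.4% and 32.5%. Of 12 other nuclear receptors examined, 2 were at least 2-fold higher and 2 lower, against 7.42% and 9.55% of all genes. Nr4a3 and Nr4a1, orphan receptors induced by adrenergic signals, had log2 ratios of 3.40 and 1.01, and Nr1d2, a clock repressor, of -1.10. The other lower gene, Nr1h4, had 56 wild-type and 0 Ucp1-KO counts.

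**Figure D4:**
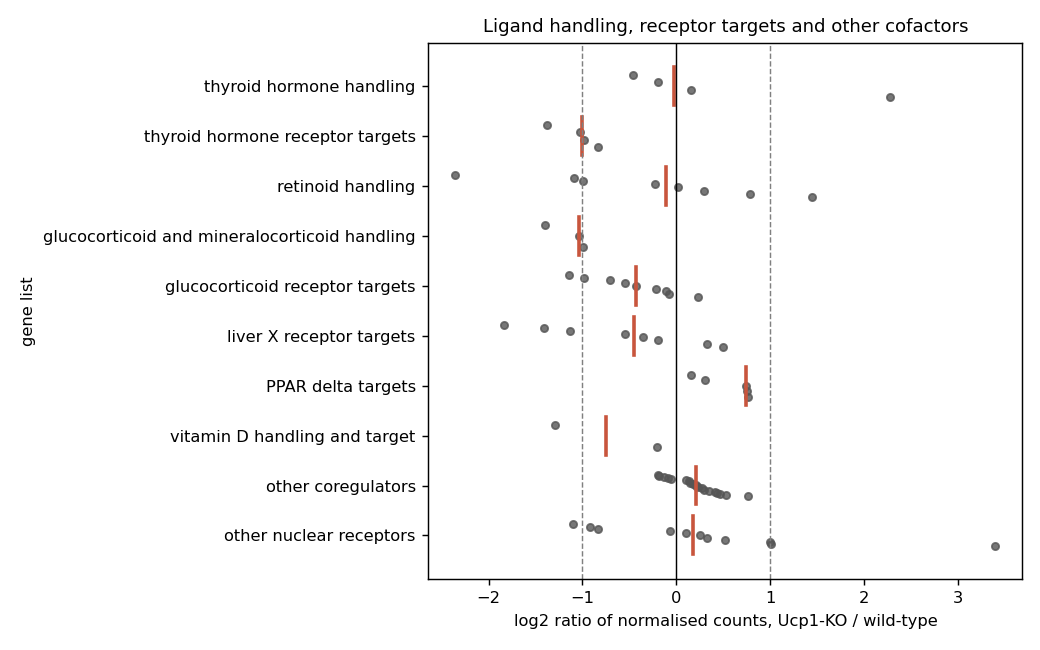
Log2 ratio (Ucp1-KO over wild-type, x axis) of the genes of 10 lists that passed the minimum mean of 10 and had counts in both libraries (points), with the list's median (bar); dashed lines mark a 2-fold difference, and Nr1h4, with no count in Ucp1-KO, enters a median but is not drawn. The thyroid hormone receptor targets lie to the left around a median of -1.0 and the PPAR delta targets to the right around 0.74.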

How the data were processed

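Poly-A-selected, directional RNA-seq was made from iBAT of 1 wild-type and 1 Ucp1-KO pool. The deposited values are raw counts of reads per Entrez gene. Per the labels, the authors trimmed reads with Trim Galore and aligned them with HISAT2 to mm39; counting was by featureCounts. Versions, annotation, strand and multi-mapping settings are not given in the sources used here. Among genes with 1 to 10 counts, 70.7% (wild-type) and 73.4% (Ucp1-KO) were even, as when both mates of a pair are counted, so intervals were computed on counts divided by 2. They cover counting error only.

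Size factors were medians of ratios from DESeq2 1.42.0 in R 4.3.3, namely 1.11 (wild-type) and 0.901 (Ucp1-KO), by which counts were divided. A pseudocount of 0.5 and a minimum mean of 10 were used. Intervals of ratios are exact conditional binomial (Clopper-Pearson) and those of ratios between subtypes exact conditional odds ratios. The scripts were tested on simulated data. Alternatives were TMM (edgeR 4.0.16), total counts, total counts without 15 mitochondrially encoded genes, other minimums and a pseudocount of 5. Exonic length is the union of coding-transcript exons in GENCODE mouse release 39 (GRCm39), joined by symbol.

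The members, lists, families and promoters shown were chosen with earlier results of these data known. All members are named; of other lists, up to 3 genes past 2-fold at a mean of at least 100, and every gene of lists of up to 5. Aldh1a2, Cyp26a1, Sgk1, Nr1d1, Nr1h4, Abcg1, Lpcat3 and marker genes were named outside this rule, after their values were seen. A gene that the rule would name is not reported here.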

Additional observations from a re-analysis of the deposited data

How the results depend on the processing

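No paired analysis was possible because only a single library was made per genotype, and for the same reason none could be left out. TMM scaling and total counts without mitochondrially encoded genes moved none of the counts by over 1.5 times and none of the medians by over 0.1, although 8 rather than 9 members were then at least 1.5-fold higher. Under total counts the median over all genes was -0.31, 0 members were past 2-fold on the higher side and 4 on the lower, and at 1.5-fold 4 were higher and 12 lower. The median of the members was then -0.33, and those of the lists were -0.33 (thyroid hormone handling), -1.31 (thyroid hormone receptor targets), -0.42 (retinoid handling), -1.34 (glucocorticoid and mineralocorticoid handling), -0.74 (glucocorticoid receptor targets), -0.76 (liver X receptor targets), 0.43 (PPAR delta targets), -1.05 (vitamin D genes), -0.10 (other coregulators) and -0.13 (other nuclear receptors). Med1 (-0.046) and Nr3c1 (-0.19) changed sign under total counts only, as did Nr2c1, Nr2f6 and Nr5a2, whose intervals include 0. Asking for a counting interval wholly beyond 2-fold left 0 members higher and 0 lower.

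Without a filter the medians were 0.15 for thyroid hormone handling, 0.17 for retinoid handling and -1.30 for vitamin D genes, because weakly counted genes enter. With a minimum mean of 50 they were 0.15, -0.23 and -0.20, with -1.19 for glucocorticoid and mineralocorticoid handling and 0.29 for other nuclear receptors, because such genes leave. A pseudocount of 5 moved the vitamin D genes to -0.61. The other 66 of 92 values for counts and medians were the same within 1.5 times or 0.1. Canonical transcript length, tried after seeing the data, gave Rxrg 25.5% and 51.9% and Ncoa1 19.6% and 42.6% of their families. Depth limits Esrrb, Rora, Nr5a2, Nr3c2 and Nr1i3, whose intervals are wide.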
